A study of Mus musculus with 4 samples.

Results

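The genes described here are 10 meiosis and germline genes, Stra8, Rec8, Dazl, Sycp1, Sycp2, Sycp3, Smc1b, Hormad1, Tex11 and Taf7l, taken by symbol from the 23420 genes counted in E14 mouse embryonic stem (ES) cells. E14 is a wild-type ES cell line, grown here without feeders on gelatin with leukemia inhibitory factor (LIF). The control group was E14 cells at 0 h (n = 2 libraries). The ATRA group was E14 cells given 1 µM of all-trans retinoic acid (ATRA), which binds and activates retinoic acid receptors, and taken after 24 h (n = 2 libraries). The titles give micromolar, a treatment label gives millimolar, and the titles were followed. The labels name dimethyl sulfoxide as the vehicle but leave unsaid whether cells at 0 h were given it, so ATRA and 24 h of culture cannot be told apart. Whether the replicates were separate cultures is not labelled, so the p-values may cover technical spread only. All 10 genes were present in the tables and all 10 passed the expression filter, among 14256 genes tested. The comparison asks how these genes, which ES cells normally keep low, stood after a day of ATRA.

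Retinoic acid is widely described as a signal for the start of meiosis in the embryonic ovary and in the postnatal testis. It switches on Stra8, whose protein works with MEIOSIN as a transcription factor on meiotic genes, and it also acts on Rec8, which codes for the meiosis-specific kleisin of the cohesin ring. SMC1B is the meiotic partner of REC8 in that ring. HORMAD1, SYCP2 and SYCP3 build the chromosome axis, SYCP1 joins the axes of homologous chromosomes as the transverse filament of the synaptonemal complex, and TEX11 is an X-linked factor for crossovers. DAZL is an RNA-binding protein that makes germ cells competent to enter meiosis, and TAF7L is a germ cell paralogue of the TFIID subunit TAF7. In ES cells many of these genes are held down by a Polycomb complex that contains PCGF6, MGA, MAX, L3MBTL2 and E2F6, and in somatic cells by DNA methylation of their promoters.

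After 24 h of ATRA, Stra8 rose about 158-fold, and it was the only 1 of the 10 genes to pass the test on the deposited counts (edgeR's quasi-likelihood test, Benjamini-Hochberg adjusted p under 0.05). The background was 0.435% of tested genes called higher and 0.168% called lower. For the other 9 genes the log2 fold change, ATRA over control, ran from 0.62 to 2.36, with adjusted p from 0.0708 to 0.389. With a correction for transcript GC content, 4 genes rose (Stra8, Rec8, Dazl and Tex11) and 0 fell, against 8.83% of tested genes called higher and 7.84% called lower. Unadjusted p was under 0.05 for 8 of the 10 genes without the correction and for 7 with it, against 40.1% and 38.2% of all genes tested. DESeq2, without GC correction, called 7 of the 10 higher (Stra8, Dazl, Sycp1, Sycp2, Hormad1, Tex11 and Taf7l) and 0 lower, where its background was 11.4% of tested genes higher and 18.7% lower. In fits that left out 1 library, the lone library of a group was assumed to vary like the other group. With the correction far fewer of all genes were called without either control library. Without either ATRA library far more of all genes were called, with and without the correction. The number of the 10 called moved in the same direction, and Stra8 was called in each of these fits. Without ATRA replicate 2 and with the correction, Sycp3 was called lower. The median log2 fold change of the 10 genes was 1.79 without the correction and 0.77 with it, against −0.02 and 0.02 over all genes tested. These backgrounds are over all GC contents, while 8 of the 10 genes lay in the lowest 2 deciles of GC content. The medians of all tested genes in those deciles were 1.03 and 0.82 without the correction, and 0.02 and 0.02 with it. Every value here is of bulk RNA, in which more cells that express a gene and more RNA of it per cell cannot be told apart.

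The libraries held 31005634 and 21484812 counts in genes for control replicates 1 and 2, and 13337972 and 11086233 for ATRA replicates 1 and 2. A count of 3 in a library stands for 0.0940 to 0.309 CPM (counts scaled to library size, with TMM factors), and every gene of the 10 was above that in every library. The ATRA replicates differed from each other along GC content: the median log2 ratio of replicate 2 to replicate 1 was 0.85 among genes in the lowest GC decile and −1.31 in the highest, against −0.01 and −0.31 between the controls. Fold changes across genes, which are not independent replicates, had a Spearman rho of −0.75 with GC content. For that reason each gene is given as CPM and as GC-corrected CPM. The correction removes whatever differs between libraries along GC content, also any such effect of ATRA, and it was fitted to these same data. Summed CPM of 8 ES cell markers went from 3536 and 3573 in the controls to 1654 and 1326 with ATRA. On the deposited counts edgeR called 0 of the 8 and DESeq2 called 5 lower, and 5 fell in the GC-corrected edgeR fit. Dppa5a, 1 of the 8, overlapped between groups, with 445 and 487 CPM in the controls and 642 and 299 with ATRA.

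The position of the 10 genes on the GC axis sets how far the correction moves them. Their transcripts had a GC content of 34.3% (Sycp3), 34.6% (Sycp1), 35.8% (Hormad1), 36.4% (Sycp2), 37.0% (Dazl), 39.7% (Tex11), 39.8% (Smc1b), 43.9% (Taf7l), 50.9% (Stra8) and 56.7% (Rec8), against a median of 50.2% over all genes tested. In 8 of the 10, those under 44%, ATRA replicate 2 was 1.62 to 3.33 times ATRA replicate 1 in CPM, and 0.906 to 2.16 times after the correction. Rec8, with the highest GC content, went the other way, with a ratio of 0.345 before and 0.769 after correction. Stra8, near the median, had ratios of 1.22 and 1.39. For 5 of the genes the GC content lay below 37.2%, the lowest percentile of tested genes, and their correction was held at its value there.

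**Figure D1:**
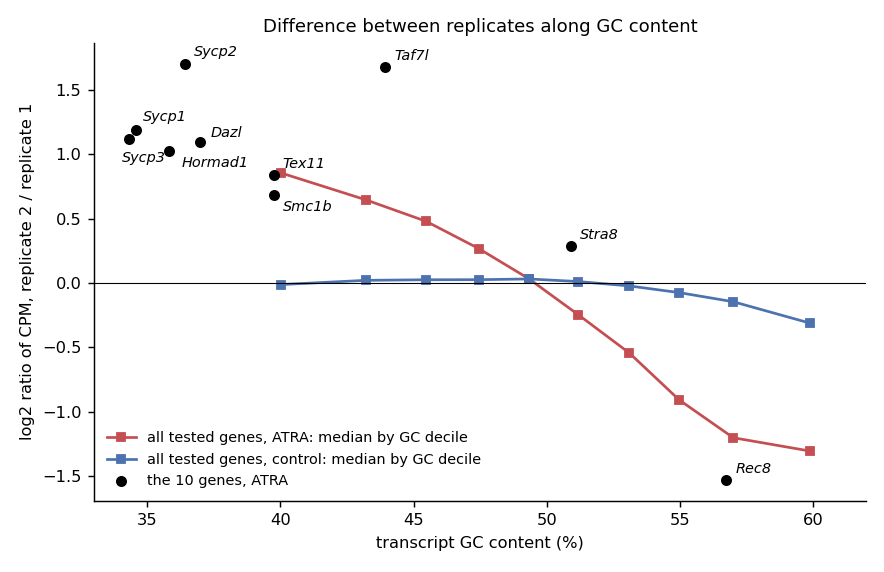
Log2 ratio of CPM in replicate 2 to replicate 1 (vertical) against transcript GC content in % (horizontal). Squares joined by lines are medians of all tested genes by GC decile for ATRA (red) and control (blue), and black points are the 10 genes in the ATRA libraries. Rec8 lies below 0 at 56.7% GC, and the 8 genes under 44% GC lie above 0.

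Stra8 (chr6:34920163-34939344, + strand, GRCm38) had 60 and 55 counts in control replicates 1 and 2, and 4361 and 3639 in ATRA replicates 1 and 2. In CPM these were 1.88, 2.45, 308 and 375. The groups did not overlap, and the mean CPM was 2.17 ± 0.402 (SD, n = 2) in the control and 341.8 ± 47.4 (SD, n = 2) with ATRA. The log2 fold change was 7.31 ± 0.37 (SE, adjusted p = 0.0229), the 5th highest of all genes tested. With GC correction it was 7.48 ± 0.26 (SE, adjusted p = 0.00111), the 8th highest. Stra8 passed the test in each of the 8 fits that left out 1 library, with a log2 fold change from 7.12 to 7.50 without and from 7.25 to 7.72 with the correction.

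Other regulators of meiotic entry rose in the GC-corrected fit. Of 13 tested genes on that list, 3 of which are among the 10, Stra8 alone passed on the deposited counts, and 9 rose and 0 fell with GC correction, with a median log2 fold change of 1.06 and 1.04. Without the correction, 11 of the 13 had an unadjusted p under 0.05 and DESeq2 called 5 higher, against 40.1% and 11.4% of all tested genes. With the correction 8.83% of all tested genes rose. The 6 that are not among the 10 were Cyp26b1 (5.54 ± 0.40, SE, adjusted p = 0.00492, all with GC correction), Tcfl5 (1.73), Sohlh2 (1.49), Dmrt1 (1.45), Meioc, listed as Gm1564 (1.04), and Kit (0.55). Cyp26b1 codes for an enzyme that degrades retinoic acid and delays meiosis in the fetal testis. Its CPM was 0.219 and 0.312 in the controls and 6.43 and 3.51 with ATRA. Meioc, which codes for a partner of the RNA helicase YTHDC2 that keeps germ cells in meiotic prophase, had 24.1 and 22.7 CPM in the controls and 68.9 and 135 with ATRA. Sohlh2, a spermatogonial transcription factor, had 9.09 and 7.75 CPM in the controls and 29.4 and 24.6 with ATRA. With GC correction fewer of the 13 were called without either control library, as of all genes, and no fewer without either ATRA library. Without the correction more of the 13 were called without either ATRA library, as of all genes. This check was chosen after seeing the data. Meiosin was not analysed here.

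Among 16 tested genes of retinoic acid signalling, 3 rose on the deposited counts: Rarb (7.79, a receptor gene), Cyp26a1 (4.94, a retinoic acid hydroxylase) and Crabp2 (3.52, a carrier protein). With GC correction 6 rose and 0 fell, and DESeq2, without it, called 6 higher and 5 lower. Of all tested genes 8.83% rose with the correction, and DESeq2 called 11.4% higher and 18.7% lower. Rarb also had the profile over the 4 libraries most like that of Stra8, at a Euclidean distance of 0.152 on centred log2 CPM. The next were Hoxa5 (1.01), Hoxb1 (1.08), Hoxb2 (1.18) and Hoxb3 (1.36). The distance compares 4 libraries only, and is a description.

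**Figure D2:**
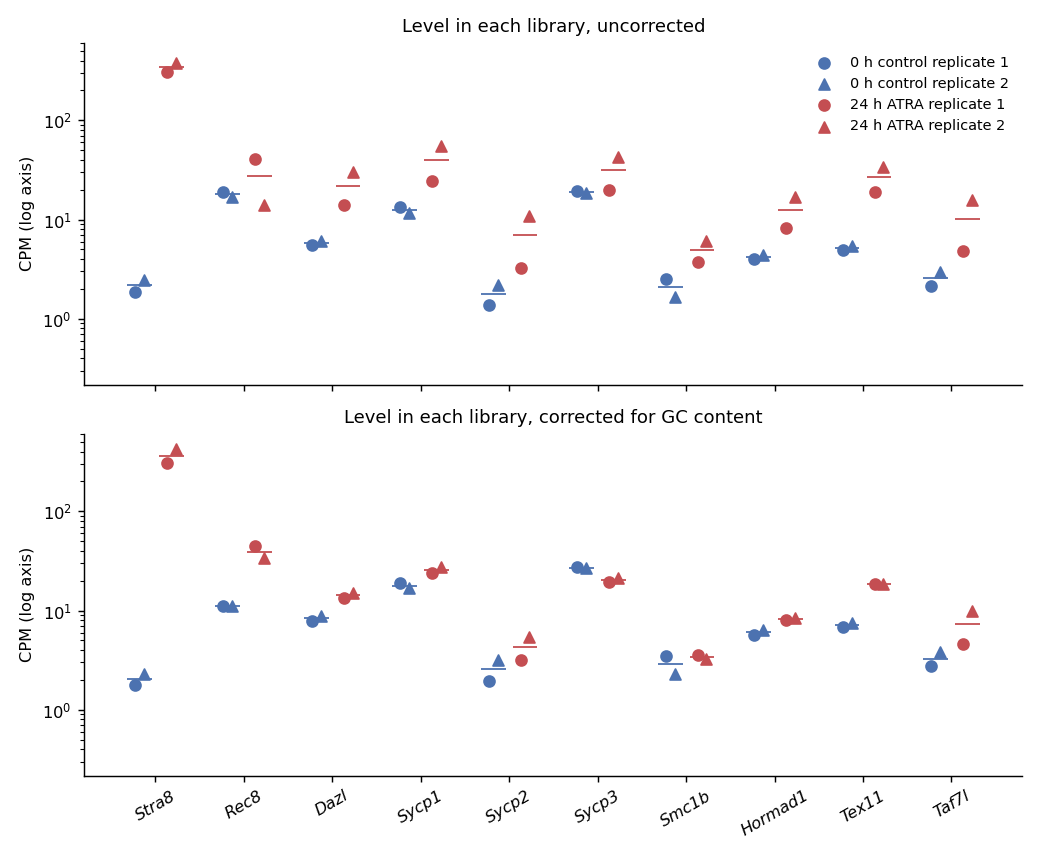
CPM on a log axis for each of the 10 genes, uncorrected (top) and GC corrected (bottom), with blue for the 0 h control, red for 24 h ATRA, circles for replicate 1, triangles for replicate 2 and a short line for the mean of each group. Stra8 goes from 1.88 and 2.45 to 308 and 375 CPM, while the other genes differ far less and Rec8 overlaps between groups before correction.

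Rec8 (chr14:55618037-55625395, + strand) overlapped between groups before the correction and rose with it. Its CPM was 18.7 and 17.1 in the controls and 40.7 and 14.0 with ATRA, so the ATRA libraries lay on either side of the controls. The log2 fold change was 0.62 ± 0.53 (SE, adjusted p = 0.389). It was −0.36 without ATRA replicate 1 (adjusted p = 0.102) and 1.20 without ATRA replicate 2 (adjusted p = 8.06e-05). After GC correction the CPM was 11.0 and 11.0 in the controls and 44.2 and 34.0 with ATRA, and Rec8 rose with a log2 fold change of 1.84 ± 0.19 (SE, adjusted p = 0.00900). With 1 library left out the corrected log2 fold change ran from 1.64 to 2.01. The call was lost without either control library, where few of all genes were called, and kept without either ATRA library, where many were. The gene Ipo4, on the opposite strand, lies 5 bases past the 3′ end of Rec8, and had 214.6 and 202.4 CPM in the controls and 92.7 and 34.2 with ATRA. Ipo4 fell in the GC-corrected fit (−0.57, adjusted p = 0.0471), and its part in the Rec8 counts was not tested.

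Smc1b (chr15:85064689-85131964, − strand) was low throughout, with 80 and 37 counts in the controls and 53 and 59 with ATRA. In CPM these were 2.51, 1.65, 3.75 and 6.08. The groups did not overlap in CPM, but after GC correction they did, at 3.47 and 2.30 against 3.60 and 3.26. The log2 fold change was 1.22 ± 0.45 (SE, adjusted p = 0.109) and, corrected, 0.23 ± 0.31 (SE, adjusted p = 0.615). Of 13 tested cohesin genes, meiotic and somatic, 0 passed with edgeR on the deposited counts, and only Rec8 passed with GC correction. On the deposited counts 9 had an unadjusted p under 0.05 and DESeq2 called 8 higher, against 40.1% and 11.4% of all tested genes. The somatic counterparts gave corrected log2 fold changes of 0.24 (Rad21, the mitotic kleisin), 0.08 (Smc1a), 0.25 (Stag1) and 0.05 (Stag2), against 0.94, 0.46, 1.16 and 1.15 uncorrected, with no call in either edgeR fit. Stag3, the meiotic STAG subunit, had 30.4 and 33.6 CPM in the controls and 29.5 and 34.0 with ATRA.

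The axis and synaptonemal complex genes Sycp1, Sycp2, Sycp3 and Hormad1 did not pass in either edgeR fit. Sycp1 (chr3:102818499-102936100, − strand) had 13.3 and 11.6 CPM in the controls and 24.4 and 55.6 with ATRA, and 18.8 and 16.8 against 23.6 and 27.7 after GC correction. The groups did not overlap on either scale, and the corrected log2 fold change was 0.53 ± 0.16 (SE, adjusted p = 0.0768), against 1.68 ± 0.46 uncorrected (SE, adjusted p = 0.0845). Hormad1 (chr3:95559677-95587671, + strand) had 3.98 and 4.41 CPM in the controls and 8.20 and 16.8 with ATRA, and 5.63 and 6.41 against 7.95 and 8.38 corrected. It too was higher in both ATRA libraries on both scales, with a log2 fold change of 1.57 ± 0.45 (SE, adjusted p = 0.0874) uncorrected and 0.44 ± 0.20 (SE, adjusted p = 0.172) corrected. Sycp2 (chr2:178345293-178407685, − strand) had 1.38 and 2.18 CPM in the controls and 3.25 and 10.8 with ATRA. After correction its groups overlapped, since control replicate 2 stood at 3.17 and ATRA replicate 1 at 3.15. The log2 fold change of Sycp2 was 1.97 ± 0.66 (SE, adjusted p = 0.0977), and 0.77 ± 0.40 corrected (SE, adjusted p = 0.213).

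Sycp3 (chr10:88459569-88473236, + strand) was the only 1 of the 10 genes whose difference changed sign with the correction. Its CPM was 19.2 and 18.4 in the controls and 19.8 and 43.1 with ATRA, a log2 fold change of 0.74 ± 0.44 (SE, adjusted p = 0.232). Corrected CPM was 27.2 and 26.8 in the controls and 19.2 and 21.5 with ATRA, a log2 fold change of −0.41 ± 0.15 (SE, adjusted p = 0.109). With a single ATRA library left out, the sign for Sycp3 still followed the correction. Without ATRA replicate 1 its log2 fold change was 1.19 uncorrected and −0.32 corrected. Without ATRA replicate 2 it was 0.085 uncorrected and −0.48 corrected. Sycp3 has exons that overlap those of Chpt1 (chr10:88452745-88504073) on the opposite strand, and reads of the overlap cannot be told apart without strand. Chpt1 had 9.59 and 9.80 CPM in the controls and 20.8 and 38.3 with ATRA. Over the 12 tested genes of the synaptonemal complex and axis, 0 passed in either edgeR fit, and the median log2 fold change was 0.42 uncorrected and −0.15 corrected. Unadjusted p was under 0.05 for 4 of the 12 without and 5 with the correction, and DESeq2 called 3 higher. The shares over all tested genes were 40.1%, 38.2% and 11.4%. The highest mean CPM among the others, not scaled to length, was that of Trip13, which codes for the ATPase that removes HORMAD proteins from chromosomes. It had 115 and 128 CPM in the controls and 127 and 183 with ATRA.

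Promoter windows from RefSeq (GRCm38.p6) were found for 9 of the 10 genes. Of those, 4 held the E-box CACGTG, the sequence that MGA and MAX bind, and their 250 bases before the annotated start are shown because Sycp1, Sycp3, Hormad1 and Taf7l share it. Each is written 5′ to 3′ on the strand of the gene, and capitals mark matches to CACGTG or, on either strand, to the E2F core TCCCGC.
Sycp1: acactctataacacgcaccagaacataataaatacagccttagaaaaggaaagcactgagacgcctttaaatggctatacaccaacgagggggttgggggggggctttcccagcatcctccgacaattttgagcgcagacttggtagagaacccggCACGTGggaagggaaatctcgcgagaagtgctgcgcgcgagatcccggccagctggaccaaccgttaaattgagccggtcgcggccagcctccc
Sycp3: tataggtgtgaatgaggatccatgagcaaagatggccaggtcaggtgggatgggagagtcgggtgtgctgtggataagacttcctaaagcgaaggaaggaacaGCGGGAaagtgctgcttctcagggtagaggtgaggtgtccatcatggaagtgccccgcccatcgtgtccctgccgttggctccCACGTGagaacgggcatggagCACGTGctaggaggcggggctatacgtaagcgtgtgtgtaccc
Hormad1: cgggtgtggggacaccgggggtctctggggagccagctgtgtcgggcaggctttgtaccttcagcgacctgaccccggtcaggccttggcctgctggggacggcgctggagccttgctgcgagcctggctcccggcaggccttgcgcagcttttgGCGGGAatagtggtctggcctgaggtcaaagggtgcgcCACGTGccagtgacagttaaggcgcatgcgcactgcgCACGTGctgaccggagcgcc
Taf7l: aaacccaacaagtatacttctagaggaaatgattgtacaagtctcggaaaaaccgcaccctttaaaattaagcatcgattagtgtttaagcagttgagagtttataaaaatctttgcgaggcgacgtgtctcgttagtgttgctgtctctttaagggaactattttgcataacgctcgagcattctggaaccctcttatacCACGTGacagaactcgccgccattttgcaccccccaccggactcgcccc
The stretches are chr3:102936101-102936350 (− strand), chr10:88459337-88459586 (+ strand), chr3:95559427-95559676 (+ strand, the first of 2 windows in the table) and chrX:134476491-134476740 (− strand). The E-boxes began 94 bases before the start in Sycp1, 64 and 43 bases before it in Sycp3, 57 and 20 in Hormad1 and 49 in Taf7l. In the full windows, 250 bases before to 50 after the start, CACGTG was present in 4 of 9 genes against 7.15% of all 32817 windows, and TCCCGC in 5 of 9 (Rec8, Sycp1, Sycp3, Smc1b and Hormad1) against 20.0%. The STRA8 and MEIOSIN motif CNCCTCAG, searched on both strands, was present in 2 of 9 (Dazl and Sycp1) against 7.94%. Direct repeats of the retinoic acid receptor hexamer with spacing of 2 or 5 bases matched in none of the 9, and in 0.268% and 0.0975% of all windows. The windows held 10 to 29 CpG dinucleotides, against a median of 7 over all windows. The windows follow RefSeq starts: that of Stra8 begins inside the span given above, and all 250 of its bases before the start are exonic in GENCODE. The sequence before Stra8's GENCODE start was therefore not searched. For Rec8 129 of these bases are exonic and for Smc1b 137, counting exons of any gene on either strand. Most of those of Smc1b lie in the span of Ribc2, which starts on the opposite strand 114 bases from the GENCODE start of Smc1b. These counts describe letters in a short window. The 4 genes with an E-box there did not pass in either edgeR fit, while DESeq2 called Sycp1, Hormad1 and Taf7l higher. A link between these motifs and the calls was not tested.

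**Figure D3:**
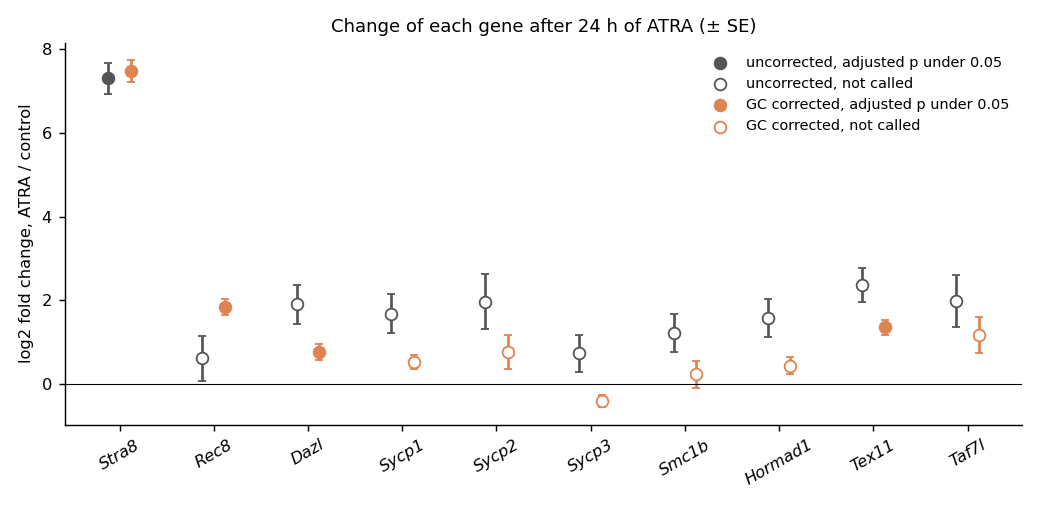
Log2 fold change, ATRA over control, for each of the 10 genes without (uncorrected) and with GC correction, with bars for ± SE. Filled points have an adjusted p under 0.05: Stra8 in both fits, and Rec8, Dazl and Tex11 only with the correction, where Sycp3 lies at −0.41.

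Tex11 (chrX:100838648-101059667, − strand) had the largest difference of the 10 after Stra8 on the deposited counts. Its CPM was 4.92 and 5.39 in the controls and 19.08 and 34.1 with ATRA, with no overlap. The log2 fold change was 2.36 ± 0.41 (SE, adjusted p = 0.0708). After GC correction both ATRA libraries stood at 18.3, against 6.81 and 7.52 in the controls, and Tex11 rose by 1.36 ± 0.17 on the log2 scale (SE, adjusted p = 0.0139). Leaving out 1 library gave corrected values from 1.28 to 1.42. The call was lost without either control library, where few of all genes were called, and kept without either ATRA library, where many were. Its tested neighbours within 50 kb included Dlg3, which rose with GC correction (1.00, adjusted p = 0.0236), and Slc7a3, which fell (−1.22, adjusted p = 0.00573). Of 19 tested genes of meiotic recombination, 0 passed on the deposited counts with edgeR. There 5 had an unadjusted p under 0.05 and DESeq2 called 3 higher, against 40.1% and 11.4% of all tested genes. With the correction Tex11 rose and Mei4, which codes for a factor needed for meiotic DNA breaks, fell (−0.97, adjusted p = 0.0412, with 7.40 and 8.69 CPM in the controls and 6.36 and 9.90 with ATRA).

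Dazl (chr17:50279395-50293636, − strand) had 5.58 and 6.06 CPM in the controls and 13.9 and 29.8 with ATRA. After GC correction the values were 7.89 and 8.81 against 13.5 and 14.9, and the groups did not overlap on either scale. Dazl rose in the corrected fit by 0.77 ± 0.18 on the log2 scale (SE, adjusted p = 0.0446), while the uncorrected value was 1.91 ± 0.46 (SE, adjusted p = 0.0788). Leaving out 1 library gave corrected values from 0.69 to 0.85. The call was lost without either control library, where few of all genes were called, and kept without either ATRA library, where many were. Among 19 tested germ cell RNA and piRNA factors, 0 passed on the deposited counts with edgeR, 5 had an unadjusted p under 0.05, and DESeq2 called 4 higher and 1 lower. With the correction Dazl and Pld6 rose while Tdrd5 and Tdrd12 fell. Among 16 tested primordial germ cell factors, 0 passed on the deposited counts with edgeR, 11 had an unadjusted p under 0.05, and DESeq2 called 2 higher and 6 lower. For both lists, 40.1% of all tested genes had such a p, and DESeq2 called 11.4% higher and 18.7% lower. With the correction 8.83% of all tested genes rose and 7.84% fell. In the list 3 rose with the correction (Kit, Dazl and Lin28a) and 6 fell, among them Prdm1 (−1.01), Prdm14 (−1.47) and Dppa3 (−1.69), which specify or mark those cells. Pou5f1 and Nanog, which ES cells share with germ cells, were among the 6. Ddx4, the germ cell RNA helicase also called Vasa, had corrected CPM of 33.4 and 30.5 in the controls and 37.0 and 43.2 with ATRA.

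Taf7l (chrX:134460118-134476490, − strand) had 2.13 and 2.98 CPM in the controls and 4.81 and 15.6 with ATRA. The ATRA libraries differed 3.24-fold from each other, and 2.16-fold after GC correction, at 4.61 and 9.96. The corrected log2 fold change was 1.17 ± 0.43 (SE, adjusted p = 0.110), against 1.99 ± 0.63 uncorrected (SE, adjusted p = 0.0931). Without ATRA replicate 1 the values were 1.63 corrected (adjusted p = 5.46e-05) and 2.62 uncorrected (adjusted p = 3.07e-06). Without ATRA replicate 2 they were 0.52 corrected (adjusted p = 0.231) and 0.94 uncorrected (adjusted p = 0.0395). Taf7, its somatic counterpart, went from 136 and 136 CPM to 157 and 289, and its corrected log2 fold change was −0.31 (adjusted p = 0.0674). Of 10 tested TFIID genes, 0 passed on the deposited counts with edgeR. There 5 had an unadjusted p under 0.05 and DESeq2 called 4 higher, against 40.1% and 11.4% of all tested genes. Taf1, the largest TFIID subunit, had the highest mean CPM of them, not scaled to length. Its corrected CPM was 207 and 204 in the controls and 254 and 258 with ATRA. With the correction Taf9b rose (1.01, adjusted p = 0.0486) and Tbp, the TATA-binding protein gene, fell (−0.59, adjusted p = 0.0370).

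**Figure D4:**
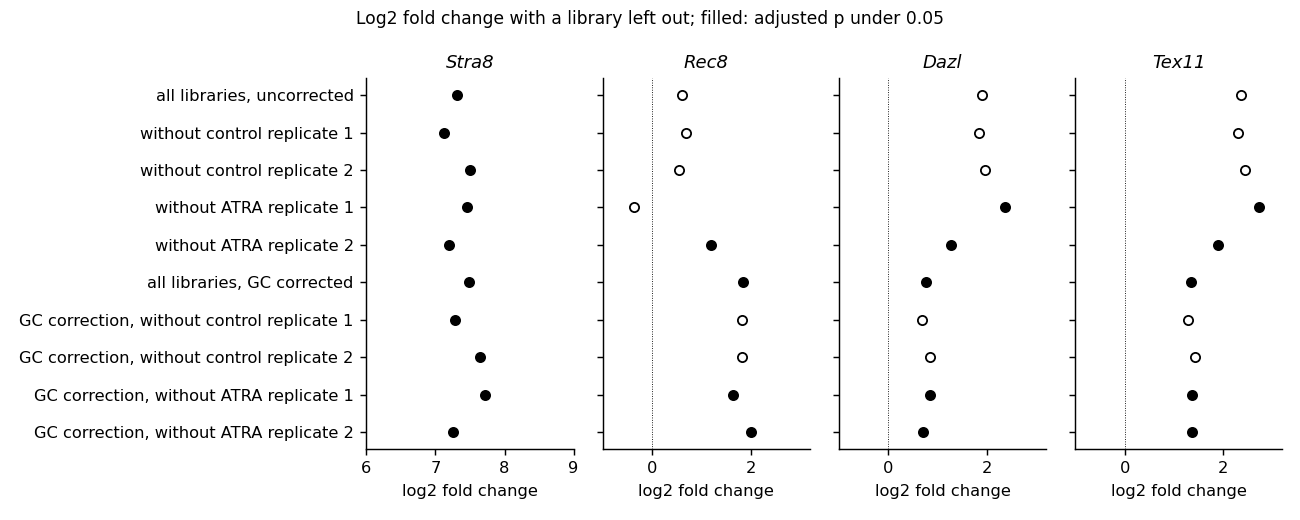
Log2 fold change of Stra8, Rec8, Dazl and Tex11 with all libraries and with each library left out, uncorrected and GC corrected. Filled points have an adjusted p under 0.05: all points of Stra8 are filled, and the corrected points of Rec8, Dazl and Tex11 are open where a control library was left out. Few of all genes were called in those corrected fits, and many in the fits without an ATRA library.

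Levels of different genes can be compared only per length. In CPM per kilobase of exon, the order in the controls was Sycp3 (14.9), Rec8 (6.10), Sycp1 (3.50), Hormad1 (2.43), Dazl (1.52), Tex11 (1.42), Stra8 (1.20), Taf7l (1.14), Smc1b (0.513) and Sycp2 (0.298). Dazl, Tex11, Stra8 and Taf7l overlapped with their neighbours in that order across the control libraries. With ATRA, Stra8 stood at 190 (171 and 208 in the libraries), Sycp3 at 24.9, Sycp1 at 11.2, Rec8 at 9.33, Tex11 at 7.34, Hormad1 at 7.23, Dazl at 5.72, Taf7l at 4.54, Smc1b at 1.21 and Sycp2 at 1.18. Stra8 thus moved from the 7th to the highest place, and in both ATRA libraries it lay above every other gene of the 10. Sycp3 in turn lay above the other 8 in both ATRA libraries. From Sycp1 to Taf7l, neighbours in the ATRA order overlapped across the libraries, as did Smc1b and Sycp2. Both orders are of uncorrected values and were not taken on the corrected scale. With ATRA, mean CPM went from 27.4 to 39.1 with the correction for Rec8, and from 40.0 to 25.7 for Sycp1. In CPM, both ATRA libraries were above both controls in 9 of the 10 genes, against 40.0% of all genes tested. In GC-corrected CPM this held for 7 of the 10, against 35.5%, and 1 of the 10 (Sycp3) lay below, against 34.8%. Shares among genes of like GC content were not computed.

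Few genes known to hold germline genes down passed the edgeR test, and those that did were lower. Over all tested genes, 0.168% were called lower on the deposited counts and 7.84% with the correction. Of 24 tested repressor genes 1 fell on the deposited counts, the DNA methyltransferase gene Dnmt3b, at 654 and 600 CPM in the controls and 142 and 148 with ATRA (−2.11 ± 0.26, SE, adjusted p = 0.0457). With the correction 0 rose and 4 fell: Dnmt3b (−1.49), Max (−1.04), L3mbtl2 (−0.94) and Wdr5 (−0.52). Unadjusted p was under 0.05 for 8 of the 24 without and 11 with the correction, against 40.1% and 38.2% of all tested genes. DESeq2 called 1 higher and 6 lower, against 11.4% and 18.7%. Max had 98.6 and 86.3 CPM in the controls and 54.6 and 37.7 with ATRA. Of 18 tested germline genes that are silenced by promoter methylation in somatic cells, 7 of which are among the 10, 3 rose with the correction (Dazl, Tex11 and Sohlh2), with a median log2 fold change of 1.21 uncorrected and 0.44 corrected. On the deposited counts 0 of the 18 passed with edgeR, 11 had an unadjusted p under 0.05 and DESeq2 called 10 higher. Over all tested genes the last 2 shares were 40.1% and 11.4%, and 8.83% rose with the correction.

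Genes of later germ cell stages were mostly too low to test. Of 16 spermatid genes 8 had 0 counts in all 4 libraries and 3 were tested, of which 0 passed with edgeR or DESeq2 and 1 had an unadjusted p under 0.05, with Ldhc, a testis lactate dehydrogenase gene, at 2.66 and 1.92 CPM in the controls and 3.25 and 2.17 with ATRA. Of 11 oocyte genes only Zp3, a zona pellucida gene, was tested, and it fell in the corrected fit (−1.84, adjusted p = 0.0334). Markers of other cell types moved with ATRA as well. Summed CPM of 8 markers of the 2-cell-like state, an ES cell state with an early embryo programme, was 63.6 and 71.1 in the controls and 257 and 404 with ATRA, and 3 of the 8 (Zscan4c, Zscan4d and Zscan4f) rose with the correction. Of 6 tested extraembryonic endoderm markers 5 rose with the correction, with summed CPM from 26.5 and 27.2 to 56.0 and 84.7. Of 7 tested spermatogonial markers 3 did (Gfra1, Kit and Dmrt1), with summed CPM from 174 and 167 to 222 and 224, and 1 listed marker was at 0 in both controls. Of 3 tested gonadal somatic markers 2 did (Wt1 and Foxl2). Of 7 tested neural progenitor markers Sox1 rose on the deposited counts, at 1.60 and 1.56 CPM in the controls and 23.8 and 30.7 with ATRA (4.10 ± 0.37, SE, adjusted p = 0.0281), and with the correction 3 rose and 1 fell. Of 6 tested trophoblast and 7 tested fibroblast markers, 2 of each rose with the correction, and 0 passed with edgeR on the deposited counts. DESeq2, without GC correction, called 0 trophoblast markers higher and 2 lower, and 1 fibroblast marker higher and 2 lower. It called 1 spermatogonial marker higher and 1 lower, and 3 neural progenitor markers higher and 1 lower. For the 2-cell-like, extraembryonic endoderm and gonadal somatic markers it called 4, 4 and 1 higher and 0 lower. Among all tested genes DESeq2 called 11.4% higher and 18.7% lower, and with the correction edgeR called 8.83% higher and 7.84% lower. The part of cells of these types in the values of the 10 genes was not tested.

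**Figure D5:**
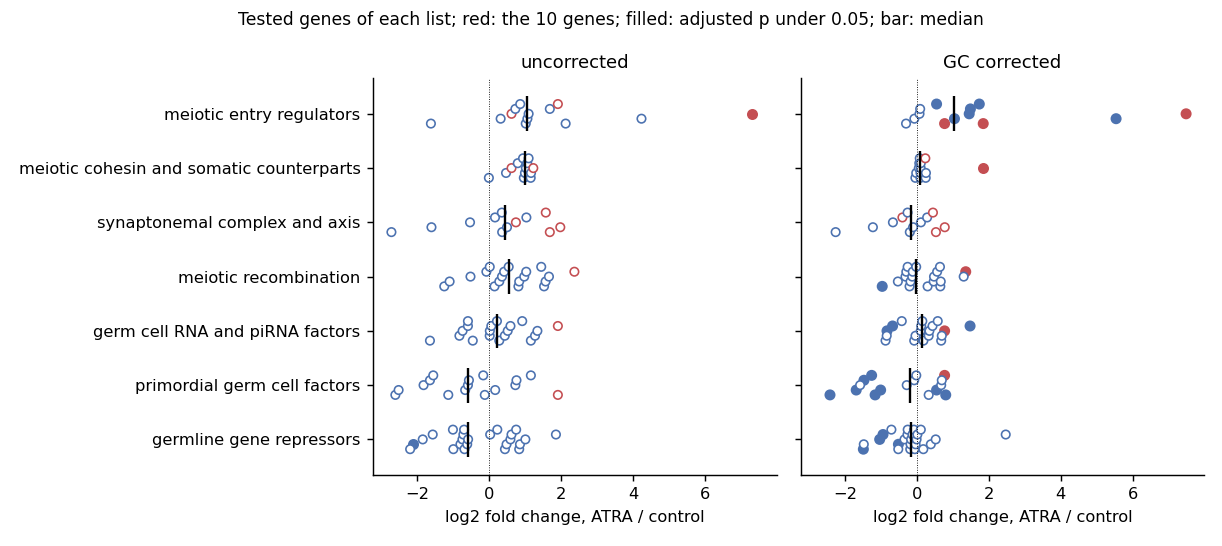
Log2 fold change, ATRA over control, of the tested genes of each list, uncorrected (left) and GC corrected (right). Red points are the 10 genes, filled points have an adjusted p under 0.05 and the bar is the median of the list, which for the meiotic entry regulators is 1.06 and 1.04.

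Genes next to Stra8 gave smaller differences than Stra8 itself. Its 4 annotated neighbours within 50 kb were all tested and none passed on the deposited counts (log2 fold changes of −0.38 for Tmem140, −0.78 for Cyren, −0.20 for Wdr91 and 0.49 for Slc23a4). Wdr91, on the opposite strand 9287 bases away, rose with GC correction (1.10, adjusted p = 0.0191).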

How the data were processed

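RNA was sequenced from 4 libraries of E14 ES cells, and groups and replicate numbers come from the sample titles. The authors deposited unnormalized counts, 1 table of gene symbols for each library. Per the submitters' processing notes, HTSeq 0.6.0, TopHat2 2.0.7, Cuffdiff 2.0.2 and Cufflinks 2.0.2 were used with mm10. Neither annotation nor strand setting is given in the sources used here. Reads in no gene (63.4% to 66.2%) were left out of library sizes. Symbols were matched to GENCODE M21 (21777 directly, 1248 by an older symbol, 395 not matched).

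Counts were tested with edgeR 4.0.16 in R 4.3.3: default expression filter by group, TMM factors, robust quasi-likelihood fit, Benjamini-Hochberg adjustment over all genes tested, threshold 0.05. SE is the log2 fold change over the root of F. For the GC correction, each library's deviation of log2 CPM (prior count 2) was fitted on transcript GC content with a natural spline (5 degrees of freedom, robust regression, MASS 7.3.60.0.1), and the fit entered edgeR as offsets. Alternatives were DESeq2 1.42.0, its size factors, no filter, a replicate block and leaving out each library. The scripts were tested on simulated data. The 10 genes and all lists were chosen with earlier results of these data known. Named genes are the 10, the somatic counterparts, the 5 nearest profiles to Stra8 and the tested neighbours of Stra8. In each list the 3 called others with the smallest p are named, or else the one with the highest mean CPM. Of the tested neighbours of Rec8 and Tex11 only those called with GC correction are named. Other called genes were named after their values were seen. A gene named by this rule is not reported here and stays in the counts and medians.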

Additional observations from a re-analysis of the deposited data

How the results depend on the processing

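Stra8 passed the test under each of the 14 alternatives, with a log2 fold change from 7.12 to 7.72. The number of the 10 genes called was 1 and stayed 1 with DESeq2 size factors. It was 4 with GC correction, 6 with no expression filter, 7 with the replicate block, 4 with the replicate block and GC correction, and 7 with the DESeq2 test. It ranged from 1 to 9 with a library left out, and with GC correction it was 1, 1, 7 and 5 without control replicate 1, control replicate 2, ATRA replicate 1 and ATRA replicate 2. The number of all genes called was 86, and it was 2377 with GC correction, 156 with DESeq2 size factors, 2807 with no filter, 4212 with the replicate block, 3002 with the block and GC correction, 4268 with the DESeq2 test, and 89 (without control replicate 1) to 10904 (without ATRA replicate 1) with a library left out. With GC correction it was 21, 26, 7303 and 5384 without control replicate 1, control replicate 2, ATRA replicate 1 and ATRA replicate 2. A lone library was assumed to vary like the other group. Sycp3 was at −0.41 with GC correction, −0.41 with the block and GC correction, and, in that same order of libraries left out, −0.39, −0.42, −0.32 and −0.48 with the correction. Rec8 ranged from −0.36 (without ATRA replicate 1) to 1.20 (without ATRA replicate 2) in uncorrected fits and from 1.64 to 2.01 in corrected ones, and Smc1b was at −0.022 with GC correction and without control replicate 2. Over the tested genes, the log2 ratio of replicate 2 to replicate 1 in the controls correlated at 0.18 with that in the ATRA libraries. Both ratios varied with GC content, so this cannot settle whether same-numbered libraries were paired. The main fit did not pair them. With the replicate block and GC correction Dazl lost its call and Taf7l gained one. The cause of these changes was not tested. Sycp2, Smc1b and Taf7l had the fewest counts over the 4 libraries, 37 to 151 in each.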
